A study of Mus musculus with 4 samples.

Results

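Dendritic cells carry antigen out of the skin and show it to T cells in the draining lymph node. A migrating cell turns on the chemokine receptor CCR7, which follows the ligands CCL19 and CCL21 into lymphatic vessels, and it displays ligands that either help or restrain the T cell it meets. CD80 and CD86 bind CD28 and CTLA-4, CD40 answers to CD40 ligand, and PD-L1 and PD-L2 engage the inhibitory receptor PD-1. The 8 genes described here are Ccr7, Pdcd1lg2 (PD-L2), Cd274 (PD-L1), Cd86, Cd80, Cd40, Itgax (the integrin chain CD11c) and Cd207 (langerin), the last taken as the marker of Langerhans cells, the dendritic cells of the epidermis. They were chosen by name, though with earlier results of these data known. They are 8 of 18193 genes measured, and 14 of 45101 probe sets carry their symbols. Each gene was read from the probe set with the highest mean of log2(signal + 16) over the arrays.

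Skin RNA was hybridised to 4 arrays, 2 from skin treated with MC903 and 2 from skin treated with ethanol, the vehicle, which the labels call Control. MC903 is calcipotriol, an analogue of vitamin D that provokes dermatitis in mice. All animals were female wild-type BALB/c mice that had received ovalbumin together with MC903 on the ear during sensitisation, so the vehicle mice had met MC903 earlier too, and all were challenged with ovalbumin by mouth before and after the treatment compared here. The labels name neither the age of the mice nor the skin site treated after the first challenge, and they do not say that each array came from a separate animal, so p-values reflect only the scatter of these samples, and that scatter may be technical. The question was how treated skin compared between MC903 and vehicle after the later challenge.

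Of the 8 genes, 7 had higher signals on both MC903 arrays than on both vehicle arrays, and Cd207 was the exception. The largest differences were those of Pdcd1lg2 and Ccr7, at 4.21-fold and 3.43-fold, followed by Cd86 and Itgax at about 2.18-fold and 2.14-fold, while Cd274, Cd40 and Cd80 differed by 1.55-fold, 1.45-fold and 1.35-fold (ratios of geometric means of signal + 16). The place of Ccr7 in this order was not firm, since 1 of its vehicle signals lay in the range of background controls. Its log2 difference was above that of Pdcd1lg2 with an added constant of 1 (2.53 against 2.27) and below that of Cd86 without vehicle replicate 2 (1.18 against 1.25). Among all genes, 21.6% were higher on both MC903 arrays and 28.2% were lower on both. The median log2 difference was 0.86 over the 8 genes, against -0.037 over all genes. No gene of the whole table, and so 0 of the 8, passed limma's test with a constant prior variance at an adjusted p below 0.05 (0.0% of genes called). Before adjustment, 6 of the 8 had p below 0.05 on the higher side, as did 6.82% of all genes, and 0 had it on the lower side, as did 8.39% of all genes. With a prior variance that follows the signal, limma called 0.539% of genes higher and again 0 of the 8. The words higher and lower below therefore describe the signals of these arrays, and 2 arrays per group limit the precision. With 2 arrays a side, the smallest two-sided p that exact permutation can give is 0.333.

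**Figure D1:**
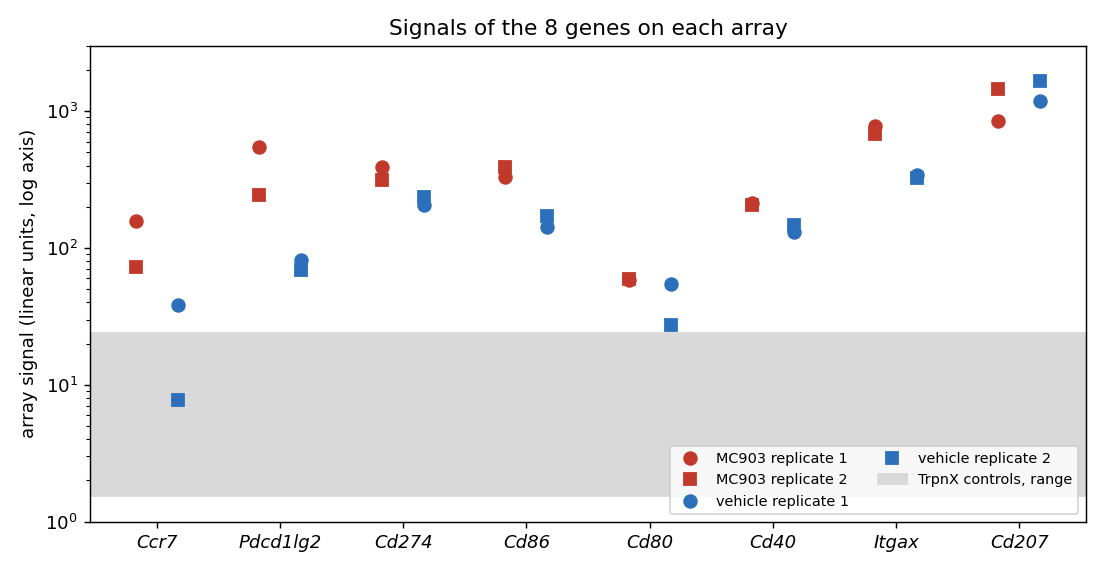
Array signal (linear units, log axis) of the 8 genes on each array, with MC903 in red and vehicle in blue, circles for replicate 1 and squares for replicate 2; the grey band is the range of the TrpnX control probe sets, 1.55 to 24.0. The red and blue points separate for every gene except Cd207, and only 1 value, Ccr7 in vehicle replicate 2, lies in the band.

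No detection calls came with the signals. Background was judged from 3 TrpnX control probe sets, made for a bacterial transcript, whose signals were 1.55 to 24.0. Median signals over all probe sets were 90.2 and 99.6 on the MC903 arrays and 109 and 99.7 on the vehicle arrays. The labelled tissue was checked by 5 keratinocyte markers, which summed to 167067 and 164594 with MC903 and to 136444 and 134473 with vehicle. Krt1 differed most among them, with a log2 difference of 1.30, and the others differed by -0.083 (Dsc3) to 0.28 (Krt14). In whole skin, fewer cells of a type and less RNA per cell cannot be told apart, and this holds for every gene below.

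Ccr7, the receptor that leads mature dendritic cells to lymphatic vessels, was close to background in vehicle skin. Its signals were 157 and 72.4 on the MC903 arrays, against 38.5 and 7.77 on the vehicle arrays. The groups did not overlap, although the lower MC903 array stood closer to the higher vehicle array than to the other MC903 array in absolute signal. The vehicle signal of 7.77 lay inside the TrpnX range. The log2 difference was 1.78 ± 0.54 (SE, n = 2 per group; limma, 95% interval 0.31 to 3.25, adjusted p = 0.279). It exceeded the difference of 99.2% of all genes. The size depended on vehicle replicate 2, without which it was 1.18, and it was 2.38 without vehicle replicate 1. For dim genes the log2(signal + 16) scale understates a change.

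Pdcd1lg2 encodes PD-L2, a PD-1 ligand found mainly on dendritic cells and macrophages and known to be induced by interleukin-4 through the transcription factor STAT6. It had signals of 547 and 244 in MC903 skin, against 81.2 and 69.1 in vehicle skin. Both MC903 arrays stood well above both vehicle arrays, and the MC903 arrays differed from each other more than the vehicle arrays did. The log2 difference of 2.07 ± 0.41 (SE, n = 2 per group; limma, 95% interval 0.96 to 3.19, adjusted p = 0.20) was above that of 99.5% of all genes. It was the largest of the 8 on this scale with all arrays, but without vehicle replicate 1 it was 2.17, below the 2.38 of Ccr7. Over the 4 possible comparisons of single arrays between the groups it ranged from 2.68-fold to 6.62-fold, which made Pdcd1lg2 the only 1 of the 8 that was at least 2-fold higher in each of them, as 1.16% of all genes were.

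Cd274 encodes PD-L1, the more widely expressed PD-1 ligand, which keratinocytes and endothelium can also make and which interferon-gamma is known to induce. Its signals were 391 and 314 with MC903, against 207 and 236 with vehicle. The groups were separate but close, the nearest arrays differing by 1.31-fold. The log2 difference was 0.63 ± 0.19 (SE, n = 2 per group; limma, 95% interval 0.12 to 1.14, adjusted p = 0.275). Within each array, the log2 distance of Pdcd1lg2 from Cd274 was 1.45 ± 0.45 (SE) higher in MC903 than in vehicle skin, so the signals of the PD-1 ligands differed unequally between the groups. This pair, and that of Cd86 and Cd80 below, was set side by side after the values were seen, and the exact permutation p of 0.333 (adjusted 0.333 over 2 pairs) is the smallest the design allows.

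Both PD-1 ligand genes lie on mouse chromosome 19, and their promoters are shown because their signals differed unequally. Itgax and Cd207 are shown beside them as the gene with the smallest p of the 8 and as the Langerhans cell marker. RefSeq's promoter table for GRCm38.p6 matched 5 of the 8 genes (Pdcd1lg2, Cd274, Itgax, Cd80 and Cd207). Each sequence below is the 250 bases before the gene's start in that table, 5′ to 3′ along the gene, and capitals mark matches to the motifs named after it.
Pdcd1lg2 promoter, chr19:29410669-29410918, + strand: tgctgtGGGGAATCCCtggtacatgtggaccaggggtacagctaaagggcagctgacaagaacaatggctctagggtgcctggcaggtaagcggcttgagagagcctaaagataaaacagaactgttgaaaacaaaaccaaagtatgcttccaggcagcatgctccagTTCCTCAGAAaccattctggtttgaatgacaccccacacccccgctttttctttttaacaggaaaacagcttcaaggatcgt
Cd274 promoter, chr19:29367188-29367437, + strand: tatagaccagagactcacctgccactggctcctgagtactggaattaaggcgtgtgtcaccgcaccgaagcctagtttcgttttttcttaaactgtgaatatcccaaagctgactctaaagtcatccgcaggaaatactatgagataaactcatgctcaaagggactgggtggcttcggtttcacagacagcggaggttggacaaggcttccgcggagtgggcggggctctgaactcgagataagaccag
Itgax promoter, chr7:128129300-128129549, + strand: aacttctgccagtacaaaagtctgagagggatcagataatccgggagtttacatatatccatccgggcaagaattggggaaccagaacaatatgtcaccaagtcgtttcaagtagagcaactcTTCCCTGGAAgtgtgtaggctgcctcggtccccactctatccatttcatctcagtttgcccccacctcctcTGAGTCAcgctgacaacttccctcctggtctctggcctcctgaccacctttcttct
Cd207 promoter, chr6:83677858-83678107, - strand: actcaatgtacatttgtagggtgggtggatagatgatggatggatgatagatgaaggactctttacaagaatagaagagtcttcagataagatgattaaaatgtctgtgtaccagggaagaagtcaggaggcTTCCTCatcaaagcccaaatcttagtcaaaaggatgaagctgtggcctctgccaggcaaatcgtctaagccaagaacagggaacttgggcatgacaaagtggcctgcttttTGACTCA

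The motifs were searched on both strands of 32851 such windows. The STAT6 motif TTCNNNNGAA was found in 5.85% of all windows and in those of Pdcd1lg2, as TTCCTCAGAA 82 to 73 bases before the start, and of Itgax, as TTCCCTGGAA 127 to 118 bases before it. The Pdcd1lg2 window also held a match to the NF-kB consensus, present in 7.25% of windows, at 244 to 235 bases before the start (GGGGAATCCC). The core GAGGAA of the myeloid factor PU.1, in 23.3% of windows, was found in the windows of Pdcd1lg2 and Cd207, and in Pdcd1lg2 it overlaps the STAT6 match. The AP-1 motif TGANTCA, in 6.75% of windows, was found in those of Itgax, Cd80 and Cd207. None of these 5 windows held the interferon-gamma activated motif TTCNNNGAA (7.02% of windows), the interferon response motif GAAANNGAAA (2.98%) or the vitamin D response element searched as paired half-sites (0.0396%). The Cd274 window held none of the 7 motifs. These are matches of letters within 250 bases and show no binding.

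The costimulatory ligands and CD40 followed with smaller differences. Cd86, the ligand that dendritic cells raise first when activated, had signals of 331 and 393 in MC903 skin, against 143 and 173 in vehicle skin. All MC903 values lay above all vehicle values, and on this probe set replicate 2 was the higher MC903 array. The log2 difference was 1.12 ± 0.19 (SE, n = 2 per group; limma, 95% interval 0.61 to 1.63, adjusted p = 0.181). A second Cd86 probe set gave 395 and 276 with MC903, against 149 and 162 with vehicle, a log2 difference of 1.01. There replicate 1 was the higher MC903 array, so the order of the MC903 arrays depended on the probe set.

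Cd80, the other CD28 and CTLA-4 ligand, was dim. The probe set used gave 58.0 and 59.0 with MC903, against 54.5 and 27.2 with vehicle. The MC903 values were higher, but the nearest arrays differed by only 1.05-fold. The log2 difference was 0.43 ± 0.28 (SE, n = 2 per group; limma, 95% interval -0.33 to 1.20, adjusted p = 0.522), and it was 0.080 without vehicle replicate 2 and 0.79 without vehicle replicate 1. The other 3 Cd80 probe sets differed by 0.22, 0.35 and -0.61, and the probe sets with 0.35 and -0.61 had signals inside the TrpnX range on 4 and 3 of the 4 arrays. Within each array, the distance of Cd86 from Cd80 was 0.69 ± 0.49 (SE) higher with MC903 (exact permutation p = 0.333, adjusted 0.333).

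Cd40 encodes the receptor through which helper T cells license dendritic cells, and B cells, macrophages and keratinocytes carry it as well. Its signals were 214 and 205 with MC903, against 131 and 148 with vehicle. On this probe set the values were even within each group and did not overlap between them. The log2 difference was 0.54 ± 0.16 (SE, n = 2 per group; limma, 95% interval 0.10 to 0.97, adjusted p = 0.273). Its 2 other probe sets differed by 0.57 and 0.68 and were likewise higher on both MC903 arrays. They were less even with MC903, at 153 and 115 for the first and 174 and 105 for the second.

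**Figure D2:**
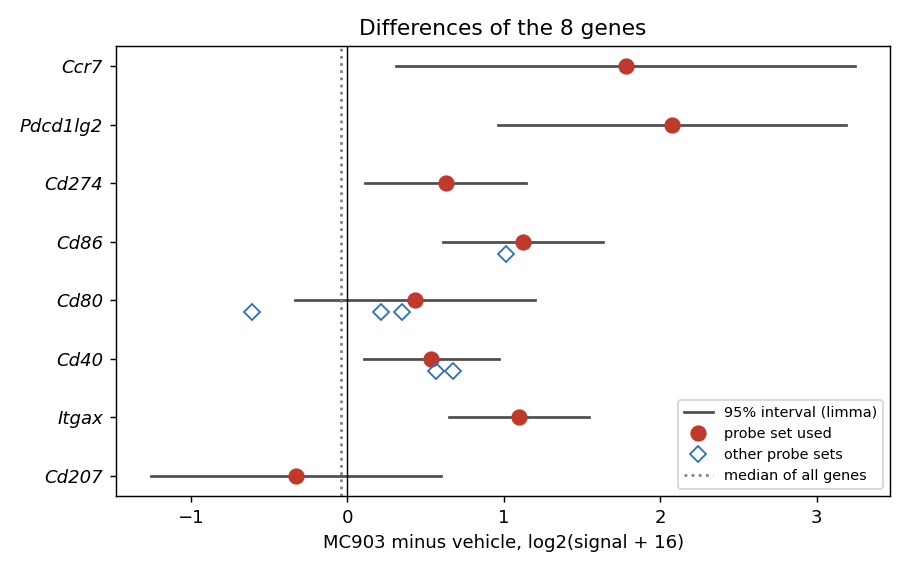
Log2 difference, MC903 minus vehicle, on the log2(signal + 16) scale for the 8 genes, with filled circles for the probe set used, bars for limma's unadjusted 95% interval, open diamonds for a gene's other probe sets and a dotted line at the median of all genes. The intervals of Cd80 and Cd207 include 0, and 1 of the 6 other probe sets, of Cd80, lies on the opposite side of 0 from its gene.

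Itgax encodes CD11c, the integrin chain used to recognise dendritic cells, which many macrophages, monocytes and natural killer cells also carry. Its signals were 786 and 681 with MC903, against 341 and 324 with vehicle. Arrays of a group were close to each other and the groups were far apart. The log2 difference of 1.10 ± 0.17 (SE, n = 2 per group; limma, 95% interval 0.65 to 1.55, adjusted p = 0.164) had the smallest p of the 8. With a prior variance that follows the signal its adjusted p was 0.0575, still above the threshold.

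Cd207 encodes langerin, the lectin that builds the Birbeck granules of Langerhans cells and is also made by a subset of dermal dendritic cells. It had signals of 846 and 1459 in MC903 skin, against 1184 and 1655 in vehicle skin. The groups overlapped, since MC903 replicate 2 stood above vehicle replicate 1. The log2 difference was -0.33 ± 0.34 (SE, n = 2 per group; limma, 95% interval -1.26 to 0.60, adjusted p = 0.687). It was -0.72 without MC903 replicate 2 and 0.059 without MC903 replicate 1, so its direction rests on 1 array.

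Set against Cd207 within each array, all 7 other genes had positive differences between the groups. This follows from their own positive differences and the negative one of Cd207. For 6 of them, all but Cd80, both MC903 arrays stood above both vehicle arrays. The share of all genes that do so against Cd207 was not computed. The change relative to Cd207 was 2.40 ± 1.0 (SE) for Pdcd1lg2, 2.11 ± 1.21 for Ccr7, 1.45 ± 0.29 for Cd86 and 1.43 ± 0.56 for Itgax. It was 0.96 ± 0.56 for Cd274, 0.86 ± 0.45 for Cd40 and 0.76 ± 0.70 for Cd80. Single arrays decided much of these sizes. Without MC903 replicate 1 the change came to 1.46 for Pdcd1lg2, 1.24 for Ccr7, 0.94 for Itgax, 0.42 for Cd274, 0.45 for Cd40 and 0.38 for Cd80, and without MC903 replicate 2 to 3.35, 2.98, 1.92, 1.49, 1.28 and 1.14 for the same genes. For Ccr7 it was 1.27 without vehicle replicate 2, and for Cd80 it was 0.17 without vehicle replicate 2 and 1.35 without vehicle replicate 1. Cd86 ranged from 1.18 to 1.72. The exact permutation p was 0.333 for 6 genes (adjusted 0.389 over 7 comparisons) and 0.667 for Cd80. The 7 comparisons share the Cd207 values and are not independent. Cd207 was low in MC903 replicate 1, and all 7 changes were larger in that array than in MC903 replicate 2.

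The genes did not share 1 pattern across the arrays. Distances were Euclidean, between mean-centred log2 values of the probe sets used over the 4 arrays. The closest pair was Cd274 and Cd40, at 0.19, followed by Cd86 and Itgax, at 0.38. Ccr7 and Pdcd1lg2, which were both higher in MC903 replicate 1 than in replicate 2, lay 0.78 apart. Cd207 was farthest from Pdcd1lg2, at 2.79.

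Across the 11787 genes with a mean signal above 100, those with the pattern most like that of Pdcd1lg2 were Ccl17, a chemokine that attracts T helper cells bearing CCR4, at a distance of 0.12, the metalloprotease gene Adam8, at 0.13, and Tnfrsf9, the costimulatory receptor 4-1BB, at 0.29. Ccl17 had signals of 1509 and 610.2 with MC903, against 230.2 and 201 with vehicle. The nearest to Ccr7 were Serpina3n, a serine protease inhibitor, at 0.25, Cd209e, a C-type lectin gene, at 0.26, and the lipoxygenase gene Alox15, at 0.30. The Ccr7 pattern includes a vehicle signal of 7.77, inside the TrpnX range, so these distances rest partly on a background value. Those nearest to Cd207 were C1qtnf7, at 0.059, Wnt3a, at 0.098, and Cidea, at 0.13. With 4 arrays such likeness is a description only.

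Genes that act with the members were read from 5 lists. In none did limma call a gene over all genes with either prior. Shares over all genes for the counts below were 21.6% higher on both MC903 arrays and 28.2% lower on both. At an unadjusted limma p below 0.05 they were 6.82% higher and 8.39% lower. Among receptors and ligands of dendritic cell and T cell migration, 11 of 16 measured genes were higher on both MC903 arrays. The 2 lower on both were Ccr4, the receptor of CCL17 (-0.49), and Ackr4 (-0.51). For Ccr4 the nearest arrays were almost equal, at 66.6 with MC903 and 67.2 with vehicle. The median log2 difference was 0.82, and 8 genes had an unadjusted p below 0.05 on the higher side and 0 on the lower. The 2 largest differences were those of Ccl17, at 2.08 ± 0.47 (SE, n = 2 per group), and of Ccr1, an inflammatory chemokine receptor of monocytes, neutrophils and immature dendritic cells. Ccr1 stood at 1891 and 412 with MC903, against 201 and 235 with vehicle, so its difference of 1.95 ± 0.75 came to 0.88 without MC903 replicate 1. The probe sets of the CCR7 ligands Ccl19 and Ccl21a carry the symbols of several near-identical genes and were not used here.

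Among genes of dendritic cell maturation, 9 of 14 measured genes were higher on both MC903 arrays and 1 was lower on both, with a median of 0.49, and 3 had an unadjusted p below 0.05, all on the higher side. Fscn1, the actin bundler fascin of mature dendritic cells, stood at 2072 and 1090.5 with MC903, against 579 and 654 with vehicle (1.27 ± 0.35, and 0.81 without MC903 replicate 1). Socs2, a feedback inhibitor of cytokine signalling, stood at 1280.2 and 721 with MC903, against 443 and 502 with vehicle (1.003 ± 0.32, and 0.60 without MC903 replicate 1). For both genes the groups were separate and replicate 1 was the higher MC903 array. Fscn1 is also in the migration list.

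T cell partners of the B7 ligands and of CD40 made a list of 6 measured genes. It holds Cd28, Ctla4, Pdcd1 and Cd40lg, the PD-L2 partner Rgmb, and Icos, whose own ligand is not among the 8 genes. Of these, 4 were higher on both MC903 arrays, 1 was lower on both, and the same 4 had an unadjusted p below 0.05, with a median of 0.87 (0.56 in MC903 replicate 1 and 0.89 in replicate 2). Ctla4, the inhibitory receptor for CD80 and CD86, had signals of 259 and 212 with MC903, against 63.2 and 64.2 with vehicle. The groups were far apart, and the log2 difference was 1.65 ± 0.18 (SE, n = 2 per group; limma, adjusted p = 0.136). Icos, a costimulatory receptor of activated T cells, differed by 0.996 ± 0.27. The remaining 4 are given because their proteins bind those of the members, and were singled out after their values were seen. Cd28, the activating receptor for the same ligands, had signals of 170 and 178 with MC903, against 183 and 163 with vehicle, and its difference was 0.0099 ± 0.16. Pdcd1, the gene of PD-1, stood at 11.9 and 32.5 with MC903, against 4.34 and 4.13 with vehicle, so 3 of its 4 signals lay inside the TrpnX range. Cd40lg stood at 45.6 and 67.4 with MC903, against 24.3 and 21.8 with vehicle, the second inside the TrpnX range, and its difference was 0.88 ± 0.21. Rgmb differed by -0.33 ± 0.15.

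Other ligands of the B7 family and further checkpoint ligands had a median of 0.033 over 12 genes (0.14 in MC903 replicate 1 and -0.0011 in replicate 2), near that of all genes, with 3 higher on both MC903 arrays and 1 lower on both. At an unadjusted p below 0.05, 0 were higher and 1 was lower. Vtcn1, an inhibitory B7 ligand, differed by -1.32 ± 0.28, with signals of 6.19 and 1.55 with MC903, against 23.9 and 44.4 with vehicle. As 3 of these 4 signals lay inside the TrpnX range, Vtcn1 was at or near background and the size of its difference is uncertain. Btnl2, a butyrophilin-like gene, differed by 0.63 ± 0.72 (-0.30 without MC903 replicate 1), its groups overlapped and 2 of its signals lay inside the TrpnX range. Among costimulators of the tumour necrosis factor family, 4 of 9 measured genes were higher on both MC903 arrays and 0 were lower on both, with a median of 0.45, and 3 had an unadjusted p below 0.05, all higher. Tnfrsf9 differed by 1.92 ± 0.46, with signals of 519.6 and 207 with MC903, against 71.0 and 79.2 with vehicle. Tnfrsf14, the receptor HVEM, differed by 1.22 ± 0.43, with 1 vehicle signal (5.31) inside the TrpnX range, and by 0.67 without vehicle replicate 1.

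**Figure D3:**
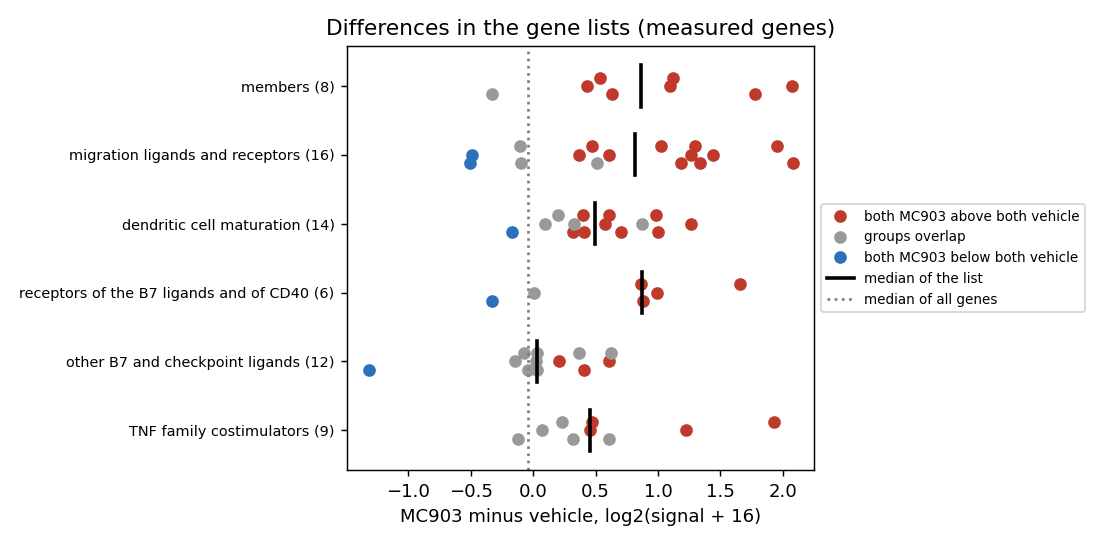
Log2 difference, MC903 minus vehicle, of each measured gene in the 8 members and in 5 lists of genes that act with them; red points were higher on both MC903 arrays than on both vehicle arrays, blue points lower on both, grey points overlap, black bars are list medians and the dotted line is the median of all genes. The medians are 0.86 for the members, 0.82 for migration, 0.49 for maturation, 0.87 for the receptors, 0.033 for other B7 and checkpoint ligands and 0.45 for the tumour necrosis factor family.

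Markers of the cells that could carry these genes were counted in the same way. Among all genes, 21.6% were higher on both MC903 arrays and 28.2% were lower on both. The counts of higher markers in the Langerhans cell and B cell lists were near the first share. Of 11 measured markers of conventional dendritic cells, 8 were higher on both MC903 arrays and 1 was lower on both, the median difference was 0.82 (0.92 in MC903 replicate 1 and 0.50 in replicate 2), and the summed signals were 6335 and 4588 with MC903, against 3912 and 3068 with vehicle. Clec10a, a lectin of dendritic cells and macrophages, was the marker lower on both (-0.18), and Xcr1, a chemokine receptor of cross-presenting dendritic cells, differed by 0.11. Xcr1 and Irf4 count among the 8 higher markers by narrow margins, their nearest arrays differing by 1.001-fold and 1.06-fold. Irf4 also had 1 vehicle signal (15.8) inside the TrpnX range. Flt3, a growth factor receptor of the lineage, had 36.9 and 119.6 with MC903, against 120.6 and 87.6 with vehicle, and the groups overlapped. Zbtb46, a transcription factor of these cells, had 100.4 and 129.6 with MC903, against 80.4 and 23.2 with vehicle, the second inside the TrpnX range. Of 6 Langerhans cell markers, Cd207 included, 1 was higher on both arrays and 0 were lower on both, with a median of 0.072 (-0.19 in MC903 replicate 1 and 0.23 in replicate 2) and sums of 11129 and 13598 with MC903, against 11179 and 11141 with vehicle. Much of that sum is Epcam and Mfge8, which other skin cells also express.

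Macrophage and monocyte markers, whose cells can carry Pdcd1lg2, Itgax, Cd86 and Cd40, were higher on both MC903 arrays for 8 of 9 genes and lower on both for 1. Their sums were 49031 and 28842 with MC903, against 21161 and 21043 with vehicle, and the median difference was 1.48 in MC903 replicate 1 and 0.45 in MC903 replicate 2. Of 6 T cell markers, 4 were higher on both MC903 arrays and 0 lower, with sums of 3539 and 2617 with MC903, against 2160.2 and 2267 with vehicle. Most of each sum was Thy1, whose groups overlapped (2278 and 1449 with MC903, against 1538 and 1575 with vehicle). Cd4, 1 of the 4 higher markers, had 3 signals inside the TrpnX range. Of 4 B cell markers 1 was higher on both and 1, Cd79a, stayed inside the TrpnX range on all arrays, with sums of 203 and 188 with MC903, against 139 and 141 with vehicle. All 5 neutrophil markers were higher on both MC903 arrays, with sums of 64659 and 10364 with MC903, against 896 and 1381 with vehicle. Most of the MC903 sums was S100a8 and S100a9, which keratinocytes also make, and the other 3 markers summed to 1235 and 391 with MC903, against 221 and 183 with vehicle. Of 4 natural killer cell markers 3 were higher on both MC903 arrays, with sums of 334 and 325 with MC903, against 212 and 222 with vehicle. Among those 3, Ncr1 lay inside the TrpnX range on 1 vehicle array and Eomes on both. Plasmacytoid dendritic cell markers had 2 of 5 higher and 1 lower, with sums of 3422 and 3495 with MC903, against 4806 and 4334 with vehicle. Most of each sum was Tcf4, the marker lower on both (2578 and 2684 with MC903, against 4312 and 3820 with vehicle). Ccr9 and Bst2 were the 2 higher markers, and Siglech differed by -0.018. Mast cell markers had 2 of 6 higher and 1 lower, with sums of 10252 and 8179 with MC903, against 8392 and 7487 with vehicle. Skeletal muscle markers were low in 1 MC903 array, with sums of 7847 and 32180.0 with MC903, against 41073 and 24406 with vehicle. The part of any of these cells in the differences of the 8 genes was not tested.

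**Figure D4:**
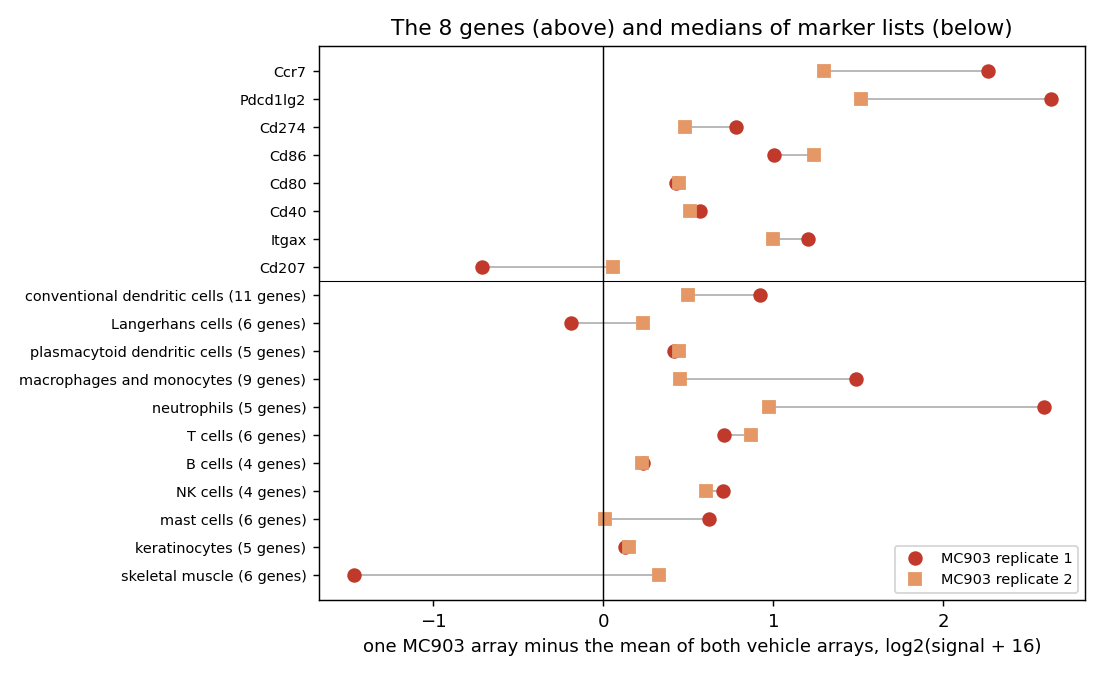
Difference of each MC903 array from the mean of both vehicle arrays, on the log2(signal + 16) scale, for the 8 genes (above the line) and for the medians of 11 marker lists (below it), with circles for MC903 replicate 1 and squares for replicate 2. Ccr7 and Pdcd1lg2 were higher in replicate 1 (2.26 and 2.63) than in replicate 2 (1.30 and 1.52), as were the medians of the macrophage, neutrophil, conventional dendritic cell and mast cell lists. On the probe sets used, Cd86, Cd80, Cd40 and Itgax differed less between the arrays. The other probe sets of Cd86 and Cd40, not drawn here, were higher in replicate 1.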

How the data were processed

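Total RNA of treated skin, 200 ng per sample, was labelled with biotin and hybridised to 3′ arrays (labels' protocols). The deposited values are linear array intensity, and the authors' steps from scan to signal are not given in the sources used here. After trimming 2% of probe sets at either end, every array had a mean of 500.003, so the deposited intensity had been scaled. Of 45101 probe sets, 64 controls, 932 with several symbols and 9160 without an annotation entry were left out, leaving 34945. Symbols come from the platform annotation, updated by Entrez ID through RefSeq (34741 matched).

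Groups were compared on log2(signal + 16) with limma 3.58.1 in R 4.3.3 (constant prior, 2 residual and 2.32 prior degrees of freedom, Benjamini-Hochberg adjustment over 18193 genes), tested on simulated data. Within-array contrasts used exact permutation tests, two-sided. The members, lists, tests and settings were chosen with earlier results of these data known. All members were named, with the 2 largest differences of each list (or up to 4 passing genes) and the 3 genes most like Ccr7, Pdcd1lg2 and Cd207; markers and other genes named beyond this were chosen after their values were seen. No 2 arrays held identical values. Same-numbered arrays are not paired in the labels. Promoters are from RefSeq, GRCm38.p6, read with Python 3.11.15.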

Additional observations from a re-analysis of the deposited data

How the results depend on the processing

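Of 112 values of the 8 genes under 14 other settings, 111 kept their direction. The exception was Cd207 (0.059 without MC903 replicate 1 and -0.72 without MC903 replicate 2). Many of these agreements could not have come out otherwise. The choice of prior, the replicate block and leaving out dim genes cannot change a log2 difference here. The probe set of highest mean linear signal was already the probe set used for each of the 8. Averaging probe sets cannot change a gene with 1 probe set. With all arrays kept, none of the 8 passed limma's test under any setting. All 56 changes relative to Cd207 under the settings tried for them kept their direction, though many differed in size. Centring on array medians cannot alter a difference taken within an array, so its values repeat the reported changes. The number of genes called over the whole table, 0 in the reported fit, was 168 with a prior variance that follows the signal, 70 with a constant of 64, 36 without the 25% of genes of lowest mean signal, 12 with a gene's probe sets averaged, 3 with arrays centred on their medians and 5 with the probe set of highest mean linear signal, a setting added after the data were seen. It stayed 0 with quantile normalization, a constant of 1, a robust prior, the replicate block and each array left out. Same-numbered arrays did not deviate together (correlation over genes -0.061), and under the replicate block the count of 0 was unchanged. The median difference of the 8 genes was 0.74 with a constant of 64, which compresses dim genes by construction, and ranged from 0.75 to 0.89 with each array left out. The count of genes higher on both MC903 arrays was 7 of 8, or 6 with probe sets averaged. Where an array is left out, its group's remaining array is taken to scatter as the other group does. Signals in or near the TrpnX range limit Ccr7, Cd80, Pdcd1, Cd40lg, Vtcn1, Btnl2, Tnfrsf14 and Zbtb46, and other genes counted in the lists, among them Irf4, Cd4, Ncr1 and Eomes.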
